A study of Rattus norvegicus with 3 samples.

Results

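Genes for heparan sulfate and chondroitin sulfate proteoglycans were examined in 3 RNA-seq libraries of cultured rat Schwann cell precursors. The genes were taken by symbol from a gene table: glypicans, syndecans, agrin, versican and its relatives, NG2 (Cspg4), neuroglycan C (Cspg5), CD44, the hyaluronan synthases and link proteins, and the enzymes that build, sulfate and trim the sugar chains. The rule found 63 of the 17337 genes in the table, and Hspg2, Xylt1 and Glce, which it also names, were not analysed here. The libraries hold untreated, wild-type primary peripheral glia from dorsal root ganglia of embryonic rats, grown in a DMEM-based Sato medium. They form 1 group with no second group to set against it, so the data give levels within these cultures. Nothing says whether they came from separate cultures, and SDs and p-values then cover no more than how these libraries differ, which may be technical.

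A proteoglycan is a core protein that carries long, sulfated sugar chains. Both chain types start on a serine with the same short linkage. Exostosins then polymerise heparan sulfate, or chondroitin synthases polymerise chondroitin sulfate, and sulfotransferases place sulfate groups that set which growth factors, matrix proteins and receptors bind. In peripheral nerve, heparan sulfate proteoglycans of the glial surface and basal lamina bind laminin, collagen and heparin-binding growth factors, whereas chondroitin sulfate proteoglycans are best known for restricting axon growth.

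Each library held 14139074 to 15309526 counts. Levels are TPM, counts per kilobase of gene length scaled to 1000000 per library, and are given ± SD (n = 3). All 8 measured markers of Schwann cell precursors, Sox10 and Erbb3 among them, reached 100 TPM in every library, with a summed level of 8840 to 9060 TPM. Foxd3, also on that list, was not analysed here. All 10 fibroblast markers were above 1 TPM as well, led by Col1a1, Col3a1 and Dcn, with a summed level of 9022 to 9238 TPM. The summed level was 762 to 784 TPM for 9 measured neuron markers, 194 to 204 TPM for 6 mural markers, 34.0 to 36.4 TPM for 6 endothelial markers and 27.5 to 33.2 TPM for 8 macrophage markers. Pdgfrb, at 173 ± 3.23 TPM, made up most of the mural sum, and the other mural markers were at 1.69 to 7.90 TPM. Of the endothelial markers Cdh5, Emcn and Tek were above 1 TPM. Kdr and Pecam1 were under 1 TPM in every library, and Cldn5 had no count. Of the macrophage markers 5 were above 1 TPM, and Ptprc and Itgam were under 1 TPM in every library. Which cells carried the proteoglycan transcripts was not tested, and in bulk RNA a difference in the number of cells cannot be told apart from a difference in RNA per cell.

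Most of the 63 genes were expressed, beside a group of paralogs with few or no counts. Of the 62 with a count, 42 were above and 19 below 1 TPM by limma's moderated test against 1 TPM (Benjamini-Hochberg adjusted p under 0.05 over all genes tested), and 1 passed in neither direction. Over all 13345 genes tested, 78.4% were above and 17.8% below, so the 42 of 62 is a lower share than the table's and the 19 of 62 a higher one. The difference in share was not tested. In total 32 of the 63 reached 10 TPM in every library, 12 reached 100 TPM, and 19 stayed under 1 TPM in all 3. Their median was 12.8 ± 0.816 TPM, beside 8.38 ± 0.159 TPM over the whole table, and with genes lacking a count left out it was 13.9 ± 0.591 beside 21.7 ± 0.195 TPM. Their summed level was 3432 ± 0.853 TPM.

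**Figure D1:**
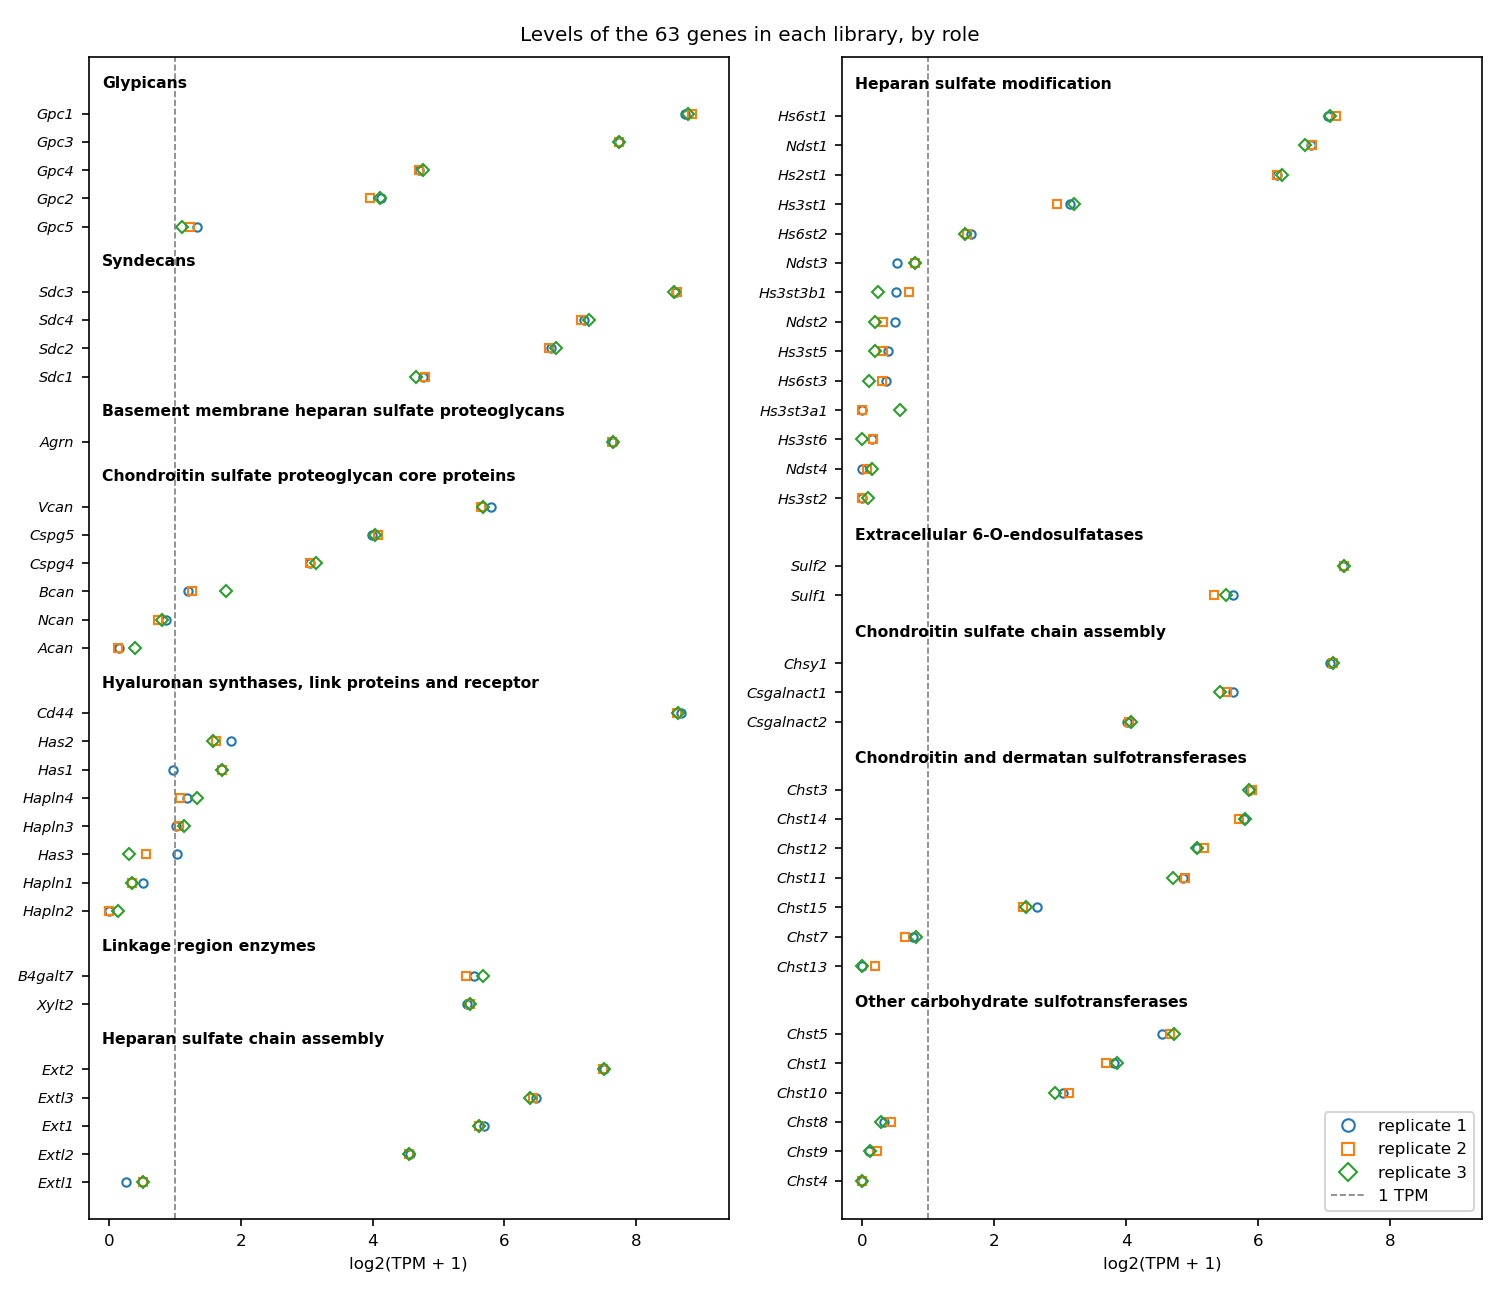
Level of each of the 63 genes as log2(TPM + 1), grouped by role and ordered by mean, with 1 symbol per library; the dashed line marks 1 TPM. The 3 libraries lie close together for abundant genes such as Gpc1, Cd44 and Sdc3, and 19 genes lie left of the line in every library.

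Glypicans are heparan sulfate proteoglycans held to the cell surface by a lipid anchor. Gpc1 (NCBI gene 58920), a co-receptor for FGF and other ligands, was the most abundant of the 63 genes, at 425, 458 and 441 TPM in replicates 1, 2 and 3. It lies on the plus strand of rn6 chromosome 9, from 99998275 to 100026818, in 9 exons. Gpc3, which binds hedgehog and Wnt ligands, followed at 214, 211 and 213 TPM, and Gpc4 was at 25.1, 24.99 and 26.3 TPM. Gpc2, best known from developing neurons, was at 16.5, 14.6 and 16.2 TPM. The ranges of these 4 genes did not overlap, and their order was the same in 3 of 3 libraries. Gpc5 was lower, at 1.34 ± 0.178 TPM. It passed as above 1 TPM (log2(TPM + 1) difference of 0.23 ± 0.076 SE from the value at 1 TPM, limma adjusted p = 0.0232), but without replicate 1 or 2 the adjusted p was 0.0800 or 0.0743. Gpc1 made up 63.3 ± 1.06% and Gpc3 30.6 ± 0.774% of the summed level of the 5 glypicans measured, of 6 listed.

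Gpc3 and Gpc4 are neighbours on the minus strand of chromosome X in rn6, 114 kb apart with no other listed gene between them. Their levels differed 8.35-fold, a log2 ratio of 3.06 ± 0.04 (SD, n = 3). Hs6st2, a heparan 6-O-sulfotransferase on the same strand, lies 382 kb beyond Gpc4 and was at 2.03 ± 0.106 TPM. Between Gpc4 and Hs6st2 lie 2 other listed genes. Gpc3, Gpc4 and Hs6st2 all passed as above 1 TPM.

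Syndecans span the membrane and carry heparan sulfate near their outer end. All 4 were above 1 TPM, beside 78.4% of all genes tested. Sdc3, the long syndecan first studied in neural tissue and Schwann cells, led at 390, 392 and 379 TPM, and made up 58.1 ± 1.17% of the summed syndecan level. Sdc4, found at focal adhesions, was at 147, 143 and 154 TPM and Sdc2 at 103, 102 and 109 TPM. Sdc1, typical of epithelia, was lowest at 26.1, 26.9 and 24.3 TPM. No neighbours in this order overlapped, and the smallest step was that of Sdc4 over Sdc2, a log2 ratio of 0.50 ± 0.01. The window around the annotated start of Sdc3 is shown because it had the most CpG dinucleotides of any of the 48 windows found, 57 in 300 bases, marked in capitals (RefSeq, GRCr8 chr5:148249542-148249841, plus strand).
Sdc3: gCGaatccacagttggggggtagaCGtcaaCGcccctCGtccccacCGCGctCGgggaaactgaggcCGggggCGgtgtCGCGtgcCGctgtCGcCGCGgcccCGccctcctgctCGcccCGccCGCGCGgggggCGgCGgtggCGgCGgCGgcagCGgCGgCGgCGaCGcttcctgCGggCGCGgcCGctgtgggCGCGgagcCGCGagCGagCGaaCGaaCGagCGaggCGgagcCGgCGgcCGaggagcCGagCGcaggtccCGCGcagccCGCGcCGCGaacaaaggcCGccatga

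Agrn encodes agrin, a heparan sulfate proteoglycan of basal laminae that clusters acetylcholine receptors at the neuromuscular junction. Its level of 199, 198 and 200 TPM was among the steadiest of the set, with a coefficient of variation of 0.409%, where counting error alone gives about 0.990%. Among core proteins outside the rule, the basement membrane proteoglycan Col18a1 was higher than every one of the 63 genes, at 1565 ± 26.9 TPM. It was followed in that list by the matrix glycoprotein Tnc, tenascin C, at 586 ± 13.1 and the co-receptor Tgfbr3 at 190 ± 5.52 TPM. Of the 15 genes on that list, not all of them core proteins, 12 were above and 2, Prg4 and Tnr, below 1 TPM. Over all genes tested the shares were 78.4% and 17.8%.

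Of the 6 chondroitin sulfate core proteins among the 63 genes, 4 were above and 2 below 1 TPM, and none reached 100 TPM. The shares above and below over all genes tested were 78.4% and 17.8%. Vcan, encoding versican, a large matrix proteoglycan that binds hyaluronan, was at 54.4, 49.1 and 50.3 TPM. Cspg5 was at 14.9, 16.0 and 15.4 TPM and Cspg4, the NG2 proteoglycan of pericytes and glial progenitors, at 7.49 ± 0.309 TPM. Vcan made up 66.7 ± 1.99% of this group. The order of Cspg5 over Cspg4 depends on gene length: per length the log2 ratio was 1.04 ± 0.08, but in counts it was -0.86. The level of Vcan likewise depends on its listed length of 11994 bases.

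The other lecticans, the versican family typical of brain and cartilage, were near or below 1 TPM. Brevican (Bcan) was at 1.30, 1.40 and 2.42 TPM, with replicate 3 above the others. It passed as above 1 TPM (limma adjusted p = 0.0130), but without replicate 1 or 3 the adjusted p was 0.0860 or 0.0521. Neurocan (Ncan) was at 0.833, 0.671 and 0.754 TPM, below 1 TPM (limma adjusted p = 0.0280, or 0.157 and 0.0955 without replicate 2 or 3). Aggrecan (Acan) was at 0.117, 0.105 and 0.314 TPM, from 26 counts in all, and was below 1 TPM (limma adjusted p = 3.02e-05).

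Each lectican gene has a link protein gene as its neighbour, and link proteins fasten lecticans to hyaluronan. Vcan and Hapln1 lie 73.6 kb apart on rn6 chromosome 2, on opposite strands, and Hapln1 was at 0.440, 0.270 and 0.270 TPM against 54.4, 49.1 and 50.3 TPM for Vcan. Bcan and Hapln2 lie 23.7 kb apart, also on chromosome 2, and Hapln2 had 1 count over the 3 libraries. Acan and Hapln3 lie 2.85 kb apart on chromosome 1, Ncan and Hapln4 lie 4.67 kb apart on chromosome 16, and in both pairs the link protein gene was the higher one in 3 of 3 libraries. Hapln3 was at 1.11 ± 0.0930 TPM and Hapln4 at 1.31 ± 0.217 TPM. In counts not divided by length Hapln3 had 10, 10 and 11 and Acan 6, 5 and 15, so their order in replicate 3 depends on gene length. Hapln4 had 35, 28 and 39 counts and Ncan 32, 24 and 27. No other listed gene lies between the members of any of these 4 pairs. Hapln4 passed as above 1 TPM (limma adjusted p = 0.0423), but without replicate 1 or 3 the adjusted p was 0.157 or 0.25, and Hapln3 passed in neither direction (limma adjusted p = 0.310).

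The Vcan and Hapln1 windows are shown because Vcan was the only gene of these 4 pairs above 10 TPM. They hold 12 and 10 CpG dinucleotides (capitals), from RefSeq, GRCr8, at chr2:22595906-22596205 (minus strand) and chr2:22366717-22367016 (plus strand).
Vcan: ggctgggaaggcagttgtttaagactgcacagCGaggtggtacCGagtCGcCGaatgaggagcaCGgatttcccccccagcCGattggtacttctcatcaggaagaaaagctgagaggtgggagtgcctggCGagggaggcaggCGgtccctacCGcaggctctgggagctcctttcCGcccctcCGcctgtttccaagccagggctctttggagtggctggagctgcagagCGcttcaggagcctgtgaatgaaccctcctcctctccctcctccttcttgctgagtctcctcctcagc
Hapln1: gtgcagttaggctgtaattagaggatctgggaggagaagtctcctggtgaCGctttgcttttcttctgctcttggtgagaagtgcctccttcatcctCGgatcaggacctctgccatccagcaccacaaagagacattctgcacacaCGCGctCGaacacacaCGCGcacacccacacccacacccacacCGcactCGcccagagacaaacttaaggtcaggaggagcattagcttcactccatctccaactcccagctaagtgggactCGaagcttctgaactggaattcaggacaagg

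**Figure D2:**
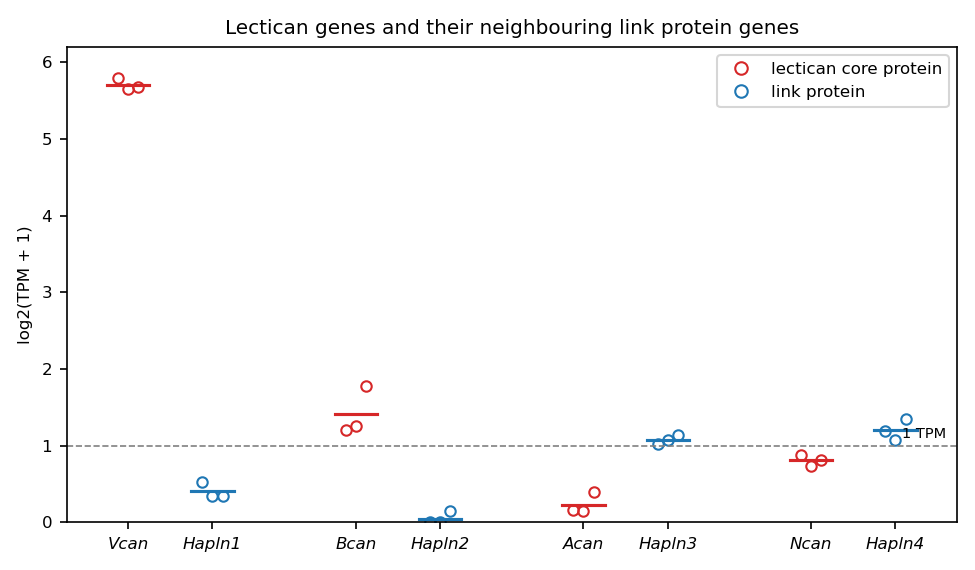
Levels of the 4 lectican genes (red) and the link protein gene beside each (blue), as log2(TPM + 1) on the y axis; points are the 3 libraries and bars their mean. Vcan stands at 49.1 to 54.4 TPM while the other 7 genes are at 2.42 TPM or less.

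Hyaluronan is the sugar chain to which lecticans bind, and it is made at the plasma membrane without a core protein. Its receptor Cd44 was the second most abundant of the 63 genes, at 411, 392 and 398 TPM (NCBI gene 25406, rn6 chromosome 3, minus strand, 92696292 to 92783658, 20 exons). The synthases were near 1 TPM. Has2, the main synthase of embryonic tissue, was at 2.63, 2.09 and 1.98 TPM. Has1 was at 0.969, 2.29 and 2.29 TPM, with replicate 1 less than the other libraries, and Has3 was at 1.04, 0.472 and 0.236 TPM. By limma Has2 and Has1 were above 1 TPM (adjusted p = 0.000131 and 0.0201) and Has3 below (adjusted p = 0.0306). The adjusted p of Has1 was 0.0724 without replicate 2 and 0.0519 without limma's trend, and that of Has3 was 0.0771 and 0.116 without replicates 2 and 3 and 0.0687 without the trend. The ranges of Has1 and Has2 overlapped, and the ratio of their levels turned between libraries, with Has2 the higher gene in 1 of 3. Cd44 made up 98.2 ± 0.0585% of the summed level of synthases, link proteins and receptor.

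Summed over the measured core proteins, the 10 heparan sulfate genes (glypicans, syndecans and Agrn) reached 1561 ± 12.7 TPM and the 6 chondroitin sulfate genes 76.8 ± 2.13 TPM. The ratio was 20.3 ± 0.721 and was above 1 in 3 of 3 libraries (exact sign-flip permutation test, p = 0.25, the smallest that 3 libraries allow). This ratio, chosen after the values were seen, depends on which genes are summed. In counts not divided by length it was 8.48. With Col18a1 added to the heparan sulfate genes, and Ptprz1, Dcn and Bgn, which carry chondroitin or dermatan sulfate, to the others, it was 1.42. Bgn and Dcn alone were at 1206 ± 31.4 and 842 ± 20.3 TPM, and Dcn is also a fibroblast marker.

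The linkage that both chain types share is begun by xylosyltransferase and extended by galactosyltransferases. Xylt2 was at 42.3, 43.8 and 43.4 TPM and B4galt7 at 45.6, 41.9 and 49.9 TPM, and their ranges overlapped. In counts not divided by length Xylt2 was the higher gene, with 67.0% of the pair, against 33.0% for B4galt7. Of 12 other genes for linkage and precursor supply that were measured, 11 were above 1 TPM, beside 78.4% of all genes tested. Papss1, which makes the sulfate donor, was at 285 ± 10.2 TPM, Ugdh, which makes the glucuronic acid precursor, at 264 ± 6.02, and Uxs1, which makes the xylose precursor, at 143 ± 1.74 TPM. Impad1 was below at 0.137 ± 0.0409 TPM, and it is listed at 2 places in the genome.

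Heparan sulfate chains are polymerised by a complex of Ext1 and Ext2. Ext2 was at 181, 179 and 182 TPM and Ext1 at 50.5, 47.8 and 48.2 TPM. Extl3, which adds the first N-acetylglucosamine and so commits a chain to heparan sulfate, was between them at 88.1, 85.5 and 83.1 TPM. Extl2 was at 22.6, 22.5 and 22.6 TPM, and no ranges in this order overlapped. Extl1 was the silent member, at 0.355 ± 0.133 TPM from 25 counts in all (limma adjusted p = 0.000227).

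At each of the N-, 2-O- and 6-O-sulfation steps of the heparan chain, 1 measured gene was abundant. Ndst1, which removes acetyl groups and adds N-sulfate, the step on which later sulfation depends, was at 111, 112 and 105 TPM. Hs2st1, the 2-O-sulfotransferase, was at 77.2, 76.9 and 81.8 TPM, and Hs6st1, a 6-O-sulfotransferase, at 133, 145 and 135 TPM. Of the summed level of the 14 measured modification genes, Hs6st1 held 40.9 ± 1.13%, Ndst1 32.3 ± 0.982% and Hs2st1 23.3 ± 1.09%. Of the 14, 5 were above and 9 below 1 TPM, beside 78.4% and 17.8% of all genes tested. It was the lowest share above among the 12 roles, but these held from 1 to 14 measured genes, and the difference was not tested.

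Of the other 11 modification genes, 9 were below 1 TPM, and Hs3st1 and Hs6st2 were above it. Ndst3 was at 0.635 ± 0.170 TPM and Ndst4 had 3 counts in all. Ndst2 was at 0.265 ± 0.135 TPM, but it is listed at 2 places on rn6 chromosome 15, and 22 of its bases overlap Zswim8 on the opposite strand. Of the 481 genes so listed, 85.7% were under 1 TPM in every library, beside 35.5% of the others, so the level of Ndst2 is uncertain. Among the 6-O-sulfotransferases Hs6st2 was at 2.15, 2.004 and 1.94 TPM, above 1 TPM (limma adjusted p = 0.000107), and Hs6st3 had 8 counts in all. Of the 6 measured 3-O-sulfotransferases, which make rare motifs such as the antithrombin site, Hs3st1 alone was above 1 TPM, at 7.65 ± 0.807. Hs3st3b1, Hs3st5, Hs3st3a1, Hs3st6 and Hs3st2 had 14, 15, 4, 2 and 1 counts in all, and each was below 1 TPM. Without replicate 1 the limma adjusted p of Hs3st3b1 was 0.0692 and that of Hs3st3a1 0.0557. Hs3st3a1 and Hs3st3b1 share a stretch of chromosome 10, 526 kb apart. At such counts the order among these genes was not resolved, since their ranges overlapped.

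The summed level of the 6-O-sulfotransferases was 140 ± 6.57 TPM and that of the 3-O-sulfotransferases 8.55 ± 0.739 TPM, a ratio of 16.5 ± 2.23 above 1 in 3 of 3 libraries (exact sign-flip permutation p = 0.25, the smallest possible). In counts not divided by length the ratio was 52.1, since Hs3st1 is listed with 927 bases. After secretion, the endosulfatases Sulf1 and Sulf2 take 6-O-sulfates off again. Sulf2 was at 156, 158 and 158 TPM and Sulf1 at 48.4, 39.3 and 44.6 TPM. The coefficient of variation of Sulf1, 10.3%, was the highest of the 34 genes with a mean of 100 counts or more, where counting error alone gives about 2.81%. The summed level of both was 201 ± 3.48 TPM, and its ratio to the 6-O-sulfotransferases was 1.44 ± 0.0904, above 1 in 3 of 3 libraries (exact sign-flip permutation p = 0.25, the smallest possible). These ratios were also chosen after the values were seen.

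Hs2st1 and Hs6st3 are shown side by side because their windows are alike in CpG content, with 37 and 40 CpG dinucleotides (capitals). Their levels were 78.6 ± 2.73 and 0.198 ± 0.108 TPM. The windows differ in the GC box GGGCGG, found 2 times in that of Hs2st1 and 0 times in that of Hs6st3, both strands counted. The windows are from RefSeq, GRCr8, at chr2:236302084-236302383 (minus strand) and chr15:102688170-102688469 (plus strand).
Hs2st1: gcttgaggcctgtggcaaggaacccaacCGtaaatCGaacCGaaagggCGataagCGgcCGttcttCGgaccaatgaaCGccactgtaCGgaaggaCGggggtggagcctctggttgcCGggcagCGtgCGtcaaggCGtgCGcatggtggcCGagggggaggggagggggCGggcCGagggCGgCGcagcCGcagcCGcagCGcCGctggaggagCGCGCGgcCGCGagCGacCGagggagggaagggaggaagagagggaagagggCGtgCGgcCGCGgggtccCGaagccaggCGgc
Hs6st3: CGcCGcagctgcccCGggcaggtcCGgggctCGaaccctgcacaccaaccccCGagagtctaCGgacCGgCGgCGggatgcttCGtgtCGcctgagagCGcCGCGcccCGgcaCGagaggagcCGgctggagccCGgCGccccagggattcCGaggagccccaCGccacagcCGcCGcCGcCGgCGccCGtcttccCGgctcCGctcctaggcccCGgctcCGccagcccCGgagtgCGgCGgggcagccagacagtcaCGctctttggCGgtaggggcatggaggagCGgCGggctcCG

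Chondroitin sulfate chains were served by a similar set of enzymes. Chsy1, a chondroitin polymerase, was at 136, 140 and 139 TPM. It made up 69.5 ± 1.29% of the summed level of the 3 measured assembly genes that the rule takes. That share leaves out Chpf and Chpf2, given below, and would be lower with them. Csgalnact1, which adds the first N-acetylgalactosamine, was at 48.4, 45.1 and 42.0 TPM and Csgalnact2 at 15.2, 15.6 and 15.9 TPM. All 5 listed genes of this branch outside the rule were above 1 TPM, beside 78.4% of all genes tested. The highest were the polymerising factors Chpf at 112 ± 3.75 and Chpf2 at 49.0 ± 2.25 TPM. The dermatan sulfate epimerase Dse followed at 24.5 ± 1.11 TPM.

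Of the 7 chondroitin and dermatan sulfotransferases, 5 were above and 2 below 1 TPM, beside 78.4% and 17.8% of all genes tested. The 6-O enzyme Chst3 was at 58.0, 59.5 and 57.6 TPM. The 4-O enzymes Chst12 and Chst11 were at 32.7, 35.2 and 32.7 TPM and at 28.0, 28.7 and 25.3 TPM. Chst14, the 4-O enzyme for dermatan sulfate, was at 54.2, 51.3 and 55.1 TPM. Chst15, which adds a second sulfate to make the E unit of chondroitin sulfate, was at 4.77 ± 0.425 TPM. Chst7, the other 6-O enzyme, was at 0.674 ± 0.0972 TPM, below 1 TPM (limma adjusted p = 0.00859, or 0.0684 without replicate 2), and Chst13, the remaining 4-O enzyme, had 1 count in all.

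The summed level of Chst3 and Chst7 was 59.0 ± 0.893 TPM, and that of Chst11, Chst12 and Chst13 was 60.9 ± 2.999 TPM. Their ratio of 0.970 ± 0.0340 was above 1 in 1 of 3 libraries (exact sign-flip permutation p = 0.5), a difference within the spread between libraries. In counts not divided by length it was 0.782. Like the next ratio, it was chosen after the values were seen. With Chst14 added to the 4-O genes their sum was 114 ± 1.17 TPM and the ratio 0.516 ± 0.00505, below 1 in 3 of 3 libraries (exact sign-flip permutation p = 0.25, the smallest possible). The steps of Chst3 over Chst14 and of Chst12 over Chst11 also depended on length, with log2 ratios of 0.13 ± 0.08 and 0.30 ± 0.07 per length but -0.40 and -0.01 in counts.

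Other sulfotransferases of the same gene family act on other glycans. Chst5, which sulfates N-acetylglucosamine, was at 22.4, 24.3 and 25.6 TPM, and Chst1, a keratan sulfate galactose enzyme, at 13.1, 11.9 and 13.5 TPM. Chst10, which completes the HNK-1 epitope carried by neural crest cells and glial adhesion molecules, was at 7.26, 7.80 and 6.57 TPM. Chst8 and Chst9, which sulfate pituitary hormone glycans, had 12 and 4 counts in all. Chst4 had no count, where 3 counts would be 0.183 to 0.196 TPM.

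**Figure D3:**
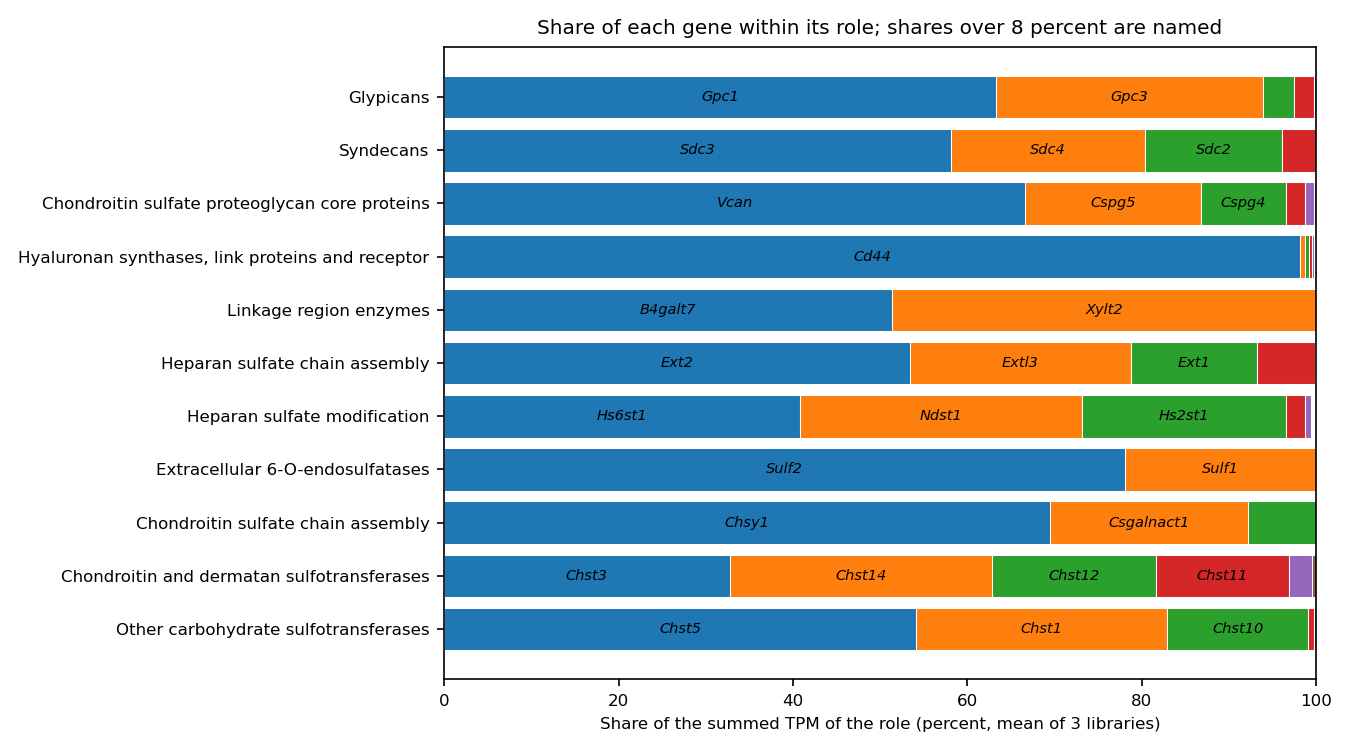
Share of the summed TPM of each role with more than 1 measured gene held by each gene, in percent, as the mean of 3 libraries; segments over 8% carry the gene's name. Cd44 holds 98.2% of its role and Sulf2 78.1%, while Chst3 holds 32.7% of the chondroitin and dermatan sulfotransferases.

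The share that the leading gene held of the summed level of the measured genes of its role was uneven. It was 53.4 ± 0.645% for Ext2, 54.1 ± 1.85% for Chst5, 78.1 ± 1.91% for Sulf2 and 32.7 ± 0.333% for Chst3. Over the 51 pairs of neighbours in the order of levels, ranges did not overlap in 37. The 14 pairs with overlapping ranges lay among the hyaluronan synthases and link proteins, among the near-silent heparan modification genes, and between B4galt7 and Xylt2. Such ratios compare TPM of different genes, so they carry any error in the listed lengths and any difference in how well each gene yields reads, which was not tested.

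Genes for what these chains bind and for their breakdown were expressed too. Of 15 measured receptors and heparin-binding ligands, 14 were above 1 TPM, led by Itgb1 at 964 ± 25.2, the secreted cytokine Ptn (pleiotrophin) at 856 ± 15.9 and the laminin receptor Dag1 at 822 ± 6.69 TPM. The other heparin-binding cytokine of that family, Mdk (midkine), was at 381 ± 9.90 TPM, and Ptprs, a receptor for both chain types, at 185 ± 5.21 TPM. All 10 tested breakdown genes were above 1 TPM, led by Hexa at 332 ± 5.60, Glb1 at 115 ± 3.60 and Gusb at 92.9 ± 2.97 TPM. Mdk and Ptprs were chosen for mention after their values were seen. Over the 5 lists of other pathway genes, 52 of 57 tested were above and 3 below 1 TPM, beside 78.4% and 17.8% of all genes tested.

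Promoter windows from 250 bases before to 50 after the annotated start were found for 48 of the 63 genes in a RefSeq table of the GRCr8 build. The 21 genes at 10 TPM or more with a window had a median of 22 CpG dinucleotides, equal to the median of 22 for all 6759 genes of the table at that level. The 18 genes under 1 TPM in every library with a window had a median of 18, from 2 in Chst4 and Chst9 to 40 in Hs6st3 and Chst8, beside a median of 4 for all 4633 such genes of the table. Silent genes with many CpG dinucleotides also included Hs3st3a1 with 34 and Hs3st2 with 32. Ndst2, also among the 18, had 33, but it is listed at 2 places and its level is uncertain. The GC box GGGCGG, searched on both strands, was in 16 of the 21 and 11 of the 18, beside 66.1% and 22.3% of all genes at those levels and 34.9% of all promoters in the RefSeq table. The TATA box TATAAA, searched the same way, was in 0 of the 21 and 1 of the 18, beside 5.96% and 22.4% of all genes at those levels and 14.3% of all promoters. The motifs cannot overlap each other, since one holds only G and C and the other only A and T, and a match describes the sequence and not binding. Gpc1 had no window in the table. With or without a window, 2406 of the 6398 genes of the whole table under 1 TPM in every library had a count, beside 18 of the 19 proteoglycan genes. At that level the compared sets are therefore unlike, and how far this bears on the contrasts in CpG and motifs was not tested.

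**Figure D4:**
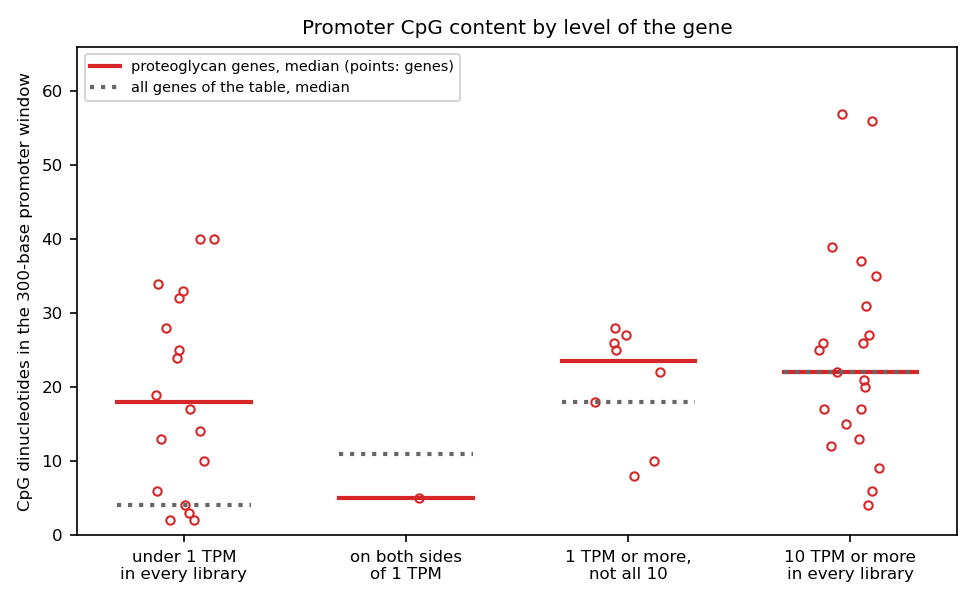
CpG dinucleotides in the 300-base window of 48 genes (red points, red line at the median) by the level of the gene, low to high, with the median of all genes of the table at that level as a dotted line. Among genes under 1 TPM the red median is 18 and the dotted one 4, and among genes at 10 TPM or more both are 22. Under 1 TPM the sets are unlike, since 2406 of the 6398 genes of the whole table had a count, beside 18 of the 19 proteoglycan genes.

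Spread between libraries was small for abundant genes. For the 34 genes with a mean of 100 counts or more the median coefficient of variation was 3.65%, where counting error gives a median of 3.01%, beside 3.99% and 3.75% over 8958 such genes of the table. None of the 34 differed over 2-fold between libraries. Of the 34, 20 lay above what counting error alone gives, beside 5141 of the 8958. Vcan at 5.41% (counting error 1.52%) and Gpc1 at 3.71% (0.960%) were among those above. Gpc3 at 0.547% (1.77%) and Extl2 at 0.318% (5.62%) lay below. With 3 libraries the coefficient of a single gene is imprecise, and its difference from counting error was not tested. Among genes with a count in every library, 9 differed over 2-fold, all of them with few counts, such as Has3 with 31 in all, Acan with 26 and Has1 with 81. Counting error covers only the draw of reads, which carry no molecular identifiers.

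**Figure D5:**
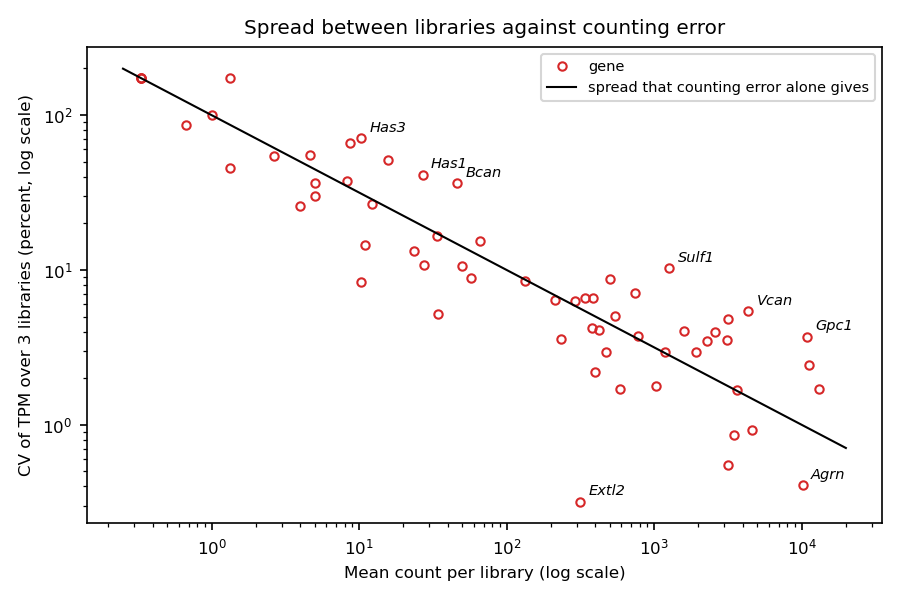
Coefficient of variation of TPM over the 3 libraries against the mean count per library, both on log scales, for the 62 genes with a count; the line is the spread that counting error alone gives. Has3 (71.1%) and Has1 (41.2%) lie above the line at low counts, Sulf1 (10.3%) and Vcan (5.41%) above it at high counts.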

How the data were processed

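RNA was sequenced from 3 libraries of 1 group, made with a stranded, poly(A)-selecting Illumina kit, per the labels' protocols. The authors deposited raw counts per gene and TPM per library, with gene lengths, per the file headers. The submitters' processing notes name STAR 2.5.2b, Subread and, as genome build, rn6. Which annotation and strand setting were used, and what was done with reads that match in several places, is not given in the sources used here. Overlapping genes and close paralogs are uncertain for that reason. Counts per kilobase (another kind of column the authors deposited) and 6 columns of library totals were not used, and 2 nameless rows were dropped.

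TPM recomputed from counts and lengths differed by at most 0.0005 TPM from the deposited values. Each gene with a count was tested with limma 3.58.1 (R 4.3.3) on log2(TPM + 1), against its value for 1 TPM, by a moderated, two-sided one-sample test with trend, adjusted over all genes by Benjamini-Hochberg. With a pseudocount of 1, differences of low genes are understated. Ratios of neighbours used TPM + 0.1 per library, with exact two-sided sign-flip permutation tests. A chi-square test between library pairs gave 2.36, 1.87 and 1.68 per degree of freedom, so no pair was treated as 1 library. A gene was called listed at 2 places where its exons lie on several chromosomes or strands, or where exon lengths recur beyond a gap of 100000 bases. All 63 NCBI gene identifiers matched the RefSeq table, which gave names and promoter windows only. The limma step was tested on simulated data.

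Alternatives were other detection levels, pseudocounts and filters, no trend, TMM scaling (edgeR 4.0.16) and DESeq2 1.42.0 size factors on the deposited counts, values not divided by length, and leaving out each library. The members and lists were chosen with earlier results of these data known. Named genes are the members, with values per library for those at 10 TPM or more, and the 3 highest and the silent genes of each other list, except 1 that is not reported here.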

Additional observations from a re-analysis of the deposited data

How the results depend on the processing

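Direction and count of calls held under most alternatives. The number above 1 TPM was 36 to 44 and the number below 13 to 22 over all of them, against 42 and 19. Leaving out 1 library gave 39 to 40 above and 14 to 17 below. Of the 62 genes, 62, 61 and 59 could be tested without replicates 1, 2 and 3. Those that dropped out had all been called below 1 TPM, so the lower number above does not come from them. Without the gene listed at 2 places the numbers were 42 and 18. Under TMM scaling and DESeq2 size factors all 62 calls held, 43 of 62 held under every alternative, and 5 more, with 1 to 3 counts each, held wherever they could be tested. Lower pseudocount, no trend, a filter at 0.1 TPM and no filter ended 2, 2, 2 and 4 calls, all among Ncan, Hapln4, Bcan, Has1 and Has3 (limma adjusted p = 0.0519 to 0.156), and the cause was not tested. At a level of 2 TPM the difference turned negative for Gpc5 (-0.36), Bcan (-0.17), Has1 (-0.11), Hapln4 (-0.38) and Hapln3 (-0.51), and at 0.5 TPM it turned positive for Ncan (0.22), Has3 (0.046), Ndst3 (0.12) and Chst7 (0.16), by the construction of the level. The median of the genes with a count was 13.9 TPM.

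In counts not divided by gene length, which is the cause by construction, the share of the gene that led its role in TPM was 73.2% for Gpc1, 73.6% for Sdc3, 85.3% for Vcan, 98.7% for Cd44, 33.0% for B4galt7, 50.2% for Ext2, 36.5% for Hs6st1, 76.3% for Chsy1, 26.7% for Chst3 and 48.9% for Chst5. Among neighbours whose ranges did not overlap, log2 ratios reversed for Cspg5 to Cspg4 (-0.86), Chst3 to Chst14 (-0.40) and Chst12 to Chst11 (-0.0058), and the overlapping B4galt7 and Xylt2 stood at -1.02. Depth limits the near-silent genes, since 3 counts in a gene of median length correspond to 0.216 to 0.232 TPM. No paired analysis was possible because the libraries form 1 group.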
